A study of Mus musculus with 2 samples.

Results

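The genes described here are 9 nuclear receptors with known roles in skin: Vdr, Pparg, Ppard, Ppara, Rxra, Nr3c1, Rora, Nr1d1 and Nr1d2. They were chosen by name, as all probe sets whose platform annotation gives 1 of these symbols alone, which found 29 probe sets for the 9 genes among 34945 such probe sets for 18193 genes. Signals came from 2 expression arrays, 1 for each of 2 sorted populations of hair follicle cells from back skin of CD-1 mouse pups at postnatal day 4. The early bulge population was bright for both of its reporters, RFP and GFP, and the non-bulge outer root sheath (ORS) population was bright for RFP and negative for GFP. All pups were double transgenic, K14-RFP/Sox9-EGFP, so both populations carried both transgenes. The RFP reporter is driven by the promoter of keratin 14, a keratin of basal epithelial cells, and the GFP reporter marks Sox9, a transcription factor of follicle stem cells. How many pups were used, whether they were pooled and at what time of day they were taken are not given in the sources used here. With 1 array for each population there was no replicate, no test between populations and no p-value.

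Nuclear receptors are transcription factors that bind DNA through a pair of zinc fingers, and most of them change activity when a small lipid-like ligand enters their ligand-binding domain. The vitamin D receptor and the PPARs work as partners of an RXR, the glucocorticoid receptor enters the nucleus after binding its hormone, and Rora and the Nr1d receptors compete for the same DNA elements of circadian clock genes. In mouse skin, Vdr and Rxra are required for the hair cycle after birth and Pparg for the formation of sebaceous glands.

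Signals are linear intensities per probe set, and signals below 57.8 were set to that value, called the floor, because MAS5 does not order such low values reliably. A ratio is early bulge over ORS on the log2 scale, and a ratio with the ORS signal under the floor is a lower bound. Of 13252 genes that reached the floor on at least 1 array, the median ratio was 0.04. Basal keratinocyte markers were bright on both arrays, with summed signals of 93382 in early bulge cells and 50959 in ORS cells over 7 genes. Of 10 genes listed as bulge markers, 4 were at least 2-fold higher in early bulge cells, against 7.30% of all measured genes. Cd34 alone was at least 2-fold lower (9.75-fold, 61.8 and 602.9). The 4 were Nfatc1 (32.2-fold), Fst (8.08-fold), Sox9 (4061 and 676) and Tcf4 (2.16-fold). Tcf3 and Tcf4 were matched by symbol alone, and the bulge factors known by these names can carry other symbols. The cells were sorted by the Sox9 reporter, and the lowest of the Sox9 probe sets gave a ratio of 0.30. Dermal fibroblast markers, which a keratin 14 gate should leave out, had summed signals of 17254 in early bulge cells and 67620 in ORS cells. At least 2-fold higher in ORS cells were 11 of these 12 markers, against 4.78% of all measured genes. In bulk RNA, fewer cells of a type and less RNA per cell cannot be told apart. Probe sets of the same gene gave the only measure of spread, within these same 2 arrays. Where signals reached the floor on both arrays, their ratios differed by a root mean square of 0.51 over 15292 pairs. Spread between sorts, RNA preparations or repeat arrays is not part of this value.

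Early bulge cells had higher signals than ORS cells for 8 of the 9 receptors, and Vdr was the exception. Pparg, Ppara and Rora were at least 2-fold higher in early bulge cells and none was 2-fold higher in ORS cells. Across all measured genes, 7.30% were at least 2-fold higher in early bulge cells and 4.78% in ORS cells, and 53.0% had the higher signal in early bulge cells at any size. The median ratio of the 9 receptors was 0.62, or 0.40 after median centring and 0.34 as a mean over probe sets. Probe sets under the floor on both arrays entered such means as no difference, which makes them smaller. Beside the 0.62 of the receptors, the median was 0.81 for the 7 basal keratinocyte markers and 0.66 for the 10 bulge markers. The part of cell composition in the ratios of the 9 receptors was not tested. With the floor at the 60th percentile of all signals, or with a pseudocount in its place, Pparg alone of the receptors was 2-fold apart. All 9 genes passed the floor, but 6 of their 29 probe sets did not on either array. Of the 23 measured probe sets, 21 were higher in early bulge cells, 7 of them by at least 2-fold, where 6.75% of all measured probe sets were. The other 2 probe sets, both of Vdr, were higher in ORS cells by less than 2-fold, and 4.44% of all measured probe sets reached 2-fold in that direction.

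**Figure D1:**
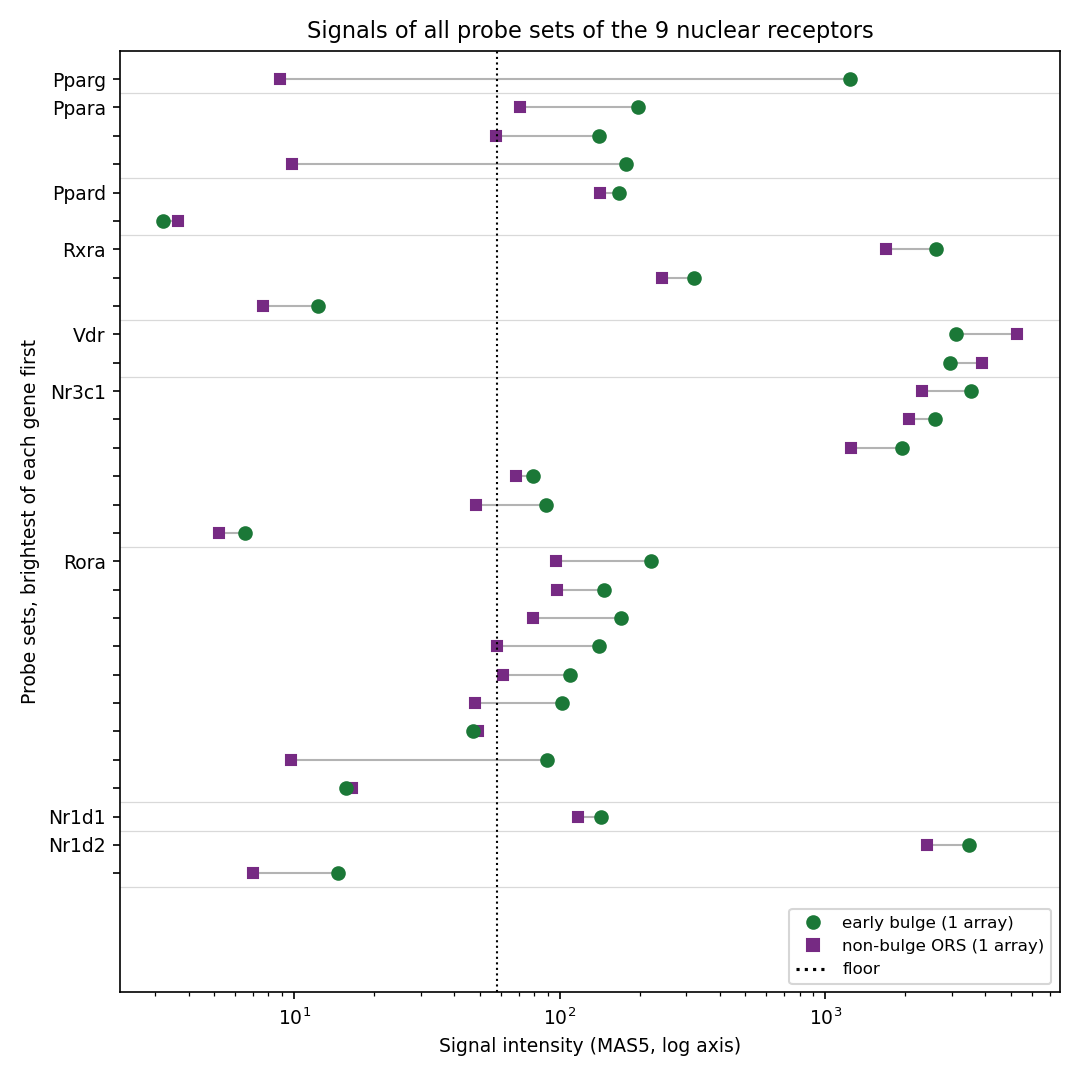
Signal intensity (log axis) of all 29 probe sets of the 9 receptors on the early bulge array (circles) and the non-bulge ORS array (squares), 1 array each, with the floor of 57.8 as a dotted line. Pparg lies above the floor in early bulge cells alone, and both Vdr probe sets are higher in ORS cells.

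The 3 PPARs are receptors for fatty acids and their derivatives, and they differed from each other in how far the arrays lay apart. Pparg, which drives fat storage in adipocytes and sebocytes, had a signal of 1244 in early bulge cells and 8.81 in ORS cells. Its ORS signal was under the floor and its early bulge signal far above it, so its ratio was at least 21.5-fold (log2 ratio at least 4.43), a size reached by 21 of the 13252 measured genes, Pparg included. The bound follows the floor and was 2.86 on the log2 scale with the floor at the 60th percentile. The gene had 1 probe set, of a design that detects several transcripts of the gene, so the value does not say which Pparg transcript was present and has no second probe set beside it.

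Ppara, a regulator of fatty acid oxidation, was dim on both arrays but higher in early bulge cells with all 3 of its probe sets. The first gave signals of 197.6 in early bulge cells and 70.7 in ORS cells, a 2.80-fold difference (log2 ratio 1.48). The second gave 177.4 in early bulge cells and 9.78 in ORS cells, at least 3.07-fold, and the third 140.6 and 57.6, at least 2.43-fold. The 3 probe sets thus had early bulge signals within a narrow range, and only the first had an ORS signal above the floor. Its log2 ratio was 0.99 with a pseudocount and 0.20 with the floor at the 60th percentile. Ppard, which acts in keratinocyte differentiation and wound repair, had 1 measured probe set with a signal of 167.0 in early bulge cells and 141.6 in ORS cells. Its log2 ratio of 0.24 was smaller than the root mean square difference of 0.51 between probe sets of one gene. The other Ppard probe set was under the floor on both arrays.

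The sequence before the annotated starts of the 3 receptors that were 2-fold apart is shown because their RNA is annotated to begin there. Which starts these cells used was not measured. Sequences are from RefSeq (GRCm38.p6), 250 bases up to the start, read 5′ to 3′ along the gene. Capitals mark AGGTCA, the half-site that most nuclear receptors recognise, searched on both strands (TGACCT on the printed strand).
Pparg, start 1, chr6:115360894-115361143, plus strand: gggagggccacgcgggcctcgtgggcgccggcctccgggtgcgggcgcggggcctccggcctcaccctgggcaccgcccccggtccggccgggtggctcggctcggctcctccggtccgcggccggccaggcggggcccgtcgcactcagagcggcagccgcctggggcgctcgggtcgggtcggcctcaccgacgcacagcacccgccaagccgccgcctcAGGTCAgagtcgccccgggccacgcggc
Pparg, start 2, chr6:115362099-115362348, plus strand: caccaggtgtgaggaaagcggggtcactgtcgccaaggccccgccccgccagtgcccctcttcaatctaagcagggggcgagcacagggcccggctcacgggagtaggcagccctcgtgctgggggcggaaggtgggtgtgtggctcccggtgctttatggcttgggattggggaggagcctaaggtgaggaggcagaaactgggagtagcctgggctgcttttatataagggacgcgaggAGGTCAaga
Pparg, start 3, chr6:115421816-115422065, plus strand: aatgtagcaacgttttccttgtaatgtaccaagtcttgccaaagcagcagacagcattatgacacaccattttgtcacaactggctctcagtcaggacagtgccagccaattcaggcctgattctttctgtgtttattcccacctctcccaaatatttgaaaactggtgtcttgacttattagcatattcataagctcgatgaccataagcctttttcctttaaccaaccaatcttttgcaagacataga
Ppara, chr15:85735526-85735775, plus strand: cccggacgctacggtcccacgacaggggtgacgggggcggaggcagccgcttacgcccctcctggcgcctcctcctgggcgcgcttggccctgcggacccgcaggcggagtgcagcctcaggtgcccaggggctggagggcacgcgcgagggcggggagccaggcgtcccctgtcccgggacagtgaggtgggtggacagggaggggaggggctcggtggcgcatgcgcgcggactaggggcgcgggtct
Rora, chr9:68653536-68653785, plus strand: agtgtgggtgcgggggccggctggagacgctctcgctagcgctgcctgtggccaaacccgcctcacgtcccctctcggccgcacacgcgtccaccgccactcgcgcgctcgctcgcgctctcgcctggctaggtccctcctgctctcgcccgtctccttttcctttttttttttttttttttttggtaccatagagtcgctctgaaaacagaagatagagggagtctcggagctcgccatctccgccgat
Pparg has 3 annotated starts, and the windows before the first and the second each hold AGGTCA, 28 and 9 bases before the start. The window before the third start of Pparg holds none, nor do those of Ppara and Rora. The Pparg windows differ in base composition, with 82.4%, 63.6% and 40.8% G or C in order of position, against a median of 52.4% over all promoters tabulated. Of 11 such windows included for 8 of the receptors, 4 hold AGGTCA on either strand, and 14.0% of all 32851 tabulated windows do. No window of Nr3c1 was included, and the receptor search left out a chromosome that was not filtered from the tabulated windows. The other 2 windows with the motif are those of Nr1d2 and of the second start of Rxra. Such a match is a description of the letters, and binding was not measured.

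Sebocyte and fat-storage genes had higher early bulge signals along with Pparg. Of 24 measured targets of the PPARs, 21 had the higher early bulge signal at any size (median log2 ratio 0.44), against 53.0% of all measured genes. At least 2-fold higher were 4 in early bulge cells and none in ORS cells, against 7.30% and 4.78% of all measured genes. These 4 were Cidea, a lipid droplet protein (1499 and 30.0, at least 25.9-fold), Plin2, which coats lipid droplets (6144 and 916.0, 6.71-fold), Cd36, a fatty acid transporter (252.1 and 42.8, at least 4.36-fold, but under 2-fold when the floor was raised to the 60th percentile), and Scd1, a fatty acid desaturase (10684 and 3682, 2.90-fold). Cpt1a, which brings fatty acids into mitochondria, and the lipase inhibitor Angptl4 are classic PPAR targets, named after their values were seen. Their log2 ratios were -0.02 and 0.25, but other probe sets gave -0.80 for Cpt1a and 1.01 for Angptl4. Fabp4, listed both as a PPAR target and as an adipocyte marker, had the lowest log2 ratio of the measured targets, -0.90. It passed 2-fold after median centring (-1.12).

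Of 11 matched sebocyte markers other than Pparg, 8 were at least 2-fold higher in early bulge cells, against 7.30% of all measured genes. The summed signals of the 11 were 34918 in early bulge cells and 3459 in ORS cells. None was under the floor in early bulge cells, and 5 were in ORS cells: Sdr16c6, Acsbg1, Far2, Scd3 and Cidea, which is also among the PPAR targets. With this floor, which sets the lower bounds, the largest values were those of Sdr16c6 (at least 75.7-fold), Krt79, which is also a keratin of the upper follicle (45.2-fold), Acsbg1 (at least 41.9-fold) and the fatty acyl reductase Far2 (at least 30.2-fold). Adipocytes also express Pparg: 4 of the 6 matched adipocyte markers, Adipoq, Lep, Retn and Cidec, were under the floor on both arrays, and the 2 measured had opposite directions, with signals of 387.3 in early bulge cells and 722.9 in ORS cells for Fabp4 and 104.7 and 74.0 for Lipe. The part of sebocytes in the Pparg ratio was not tested.

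Rxra, the partner of the PPARs and of Vdr, was well above the floor on both arrays with 2 of its 3 probe sets. The brighter one gave 2619 in early bulge cells and 1697 in ORS cells, a log2 ratio of 0.63, and the dimmer one gave 320.1 and 242.5, a log2 ratio of 0.40. Both were higher in early bulge cells by less than 2-fold. The sister genes Rxrb and Rxrg differed in detection: Rxrb had signals of 1774 and 1498 (log2 ratio 0.24), and Rxrg was under the floor on both arrays.

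Vdr, the vitamin D receptor, was the single member with a lower signal in the early bulge. Its brighter probe set gave 3104 in early bulge cells and 5276 in ORS cells, a log2 ratio of -0.77. The other gave 2943 in early bulge cells and 3900 in ORS cells, a log2 ratio of -0.41. Both probe sets had the same direction and neither reached 2-fold. Of all measured genes, 8.19% had a ratio as low as or lower than that of Vdr. The dermal fibroblast markers given above were also higher in ORS cells, and their part in the Vdr ratio was not tested.

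Other genes of the vitamin D pathway were few or dim. The median log2 ratio of the 7 measured was 0.46. At least 2-fold higher were 1 in early bulge cells and none in ORS cells, against 7.30% and 4.78% of all measured genes. That gene was Cyp27a1, a sterol hydroxylase that can also hydroxylate vitamin D, with 243.1 in early bulge cells and 29.8 in ORS cells, at least 4.20-fold, which was under 2-fold with the floor at the 60th percentile. Hr, the hairless corepressor that binds Vdr and is needed for hair regrowth, had 946.7 in early bulge cells and 1591 in ORS cells, a log2 ratio of -0.75, but another of its probe sets gave 0.56, so its direction was not settled. Cyp27b1, which makes the active hormone, and Atp2b1, a calcium pump, had log2 ratios of 0.55 and 0.47. Cyp24a1, a classic target gene of Vdr and named after its values were seen, had signals of 69.0 in early bulge cells and 34.3 in ORS cells, close to or under the floor.

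**Figure D2:**
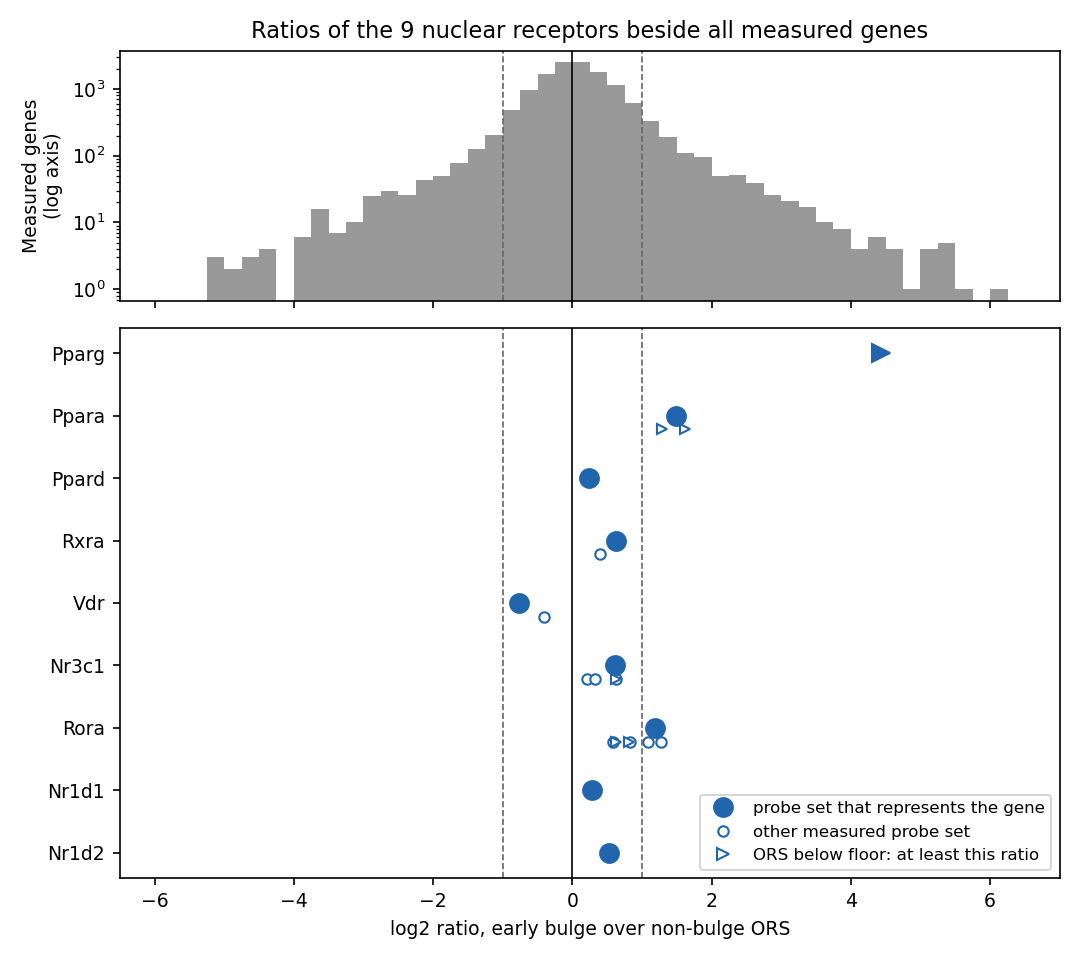
Top, number of measured genes (log axis) by log2 ratio of early bulge over non-bulge ORS, in bins of 0.25. Bottom, the same ratio for every measured probe set of the 9 receptors, filled where it represents the gene and triangles where the ORS signal was under the floor, with dashed lines at 2-fold: Pparg stands far to the right, at 4.43 or more, and Vdr is the only gene left of 0.

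Nr3c1, the glucocorticoid receptor, had higher early bulge signals with all 5 of its measured probe sets, each by less than 2-fold. The brightest gave 3549 in early bulge cells and 2313 in ORS cells, a log2 ratio of 0.62. The next gave 2590 and 2073 (log2 ratio 0.32), and a further one 1940 and 1250 (log2 ratio 0.63). The remaining 2 measured probe sets were dim, with 79.5 and 68.7 in one case and 89.2 and 48.2 in the other. The related mineralocorticoid receptor Nr3c2 was under the floor on both arrays.

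The enzyme that regenerates active glucocorticoid in cells was the gene furthest apart among those that handle the receptor or its ligand. This gene, Hsd11b1, had 619.5 in early bulge cells and 70.0 in ORS cells, an 8.85-fold difference with 1 probe set. H6pd, which supplies its cofactor, had a log2 ratio of 0.42. The receptor's chaperones and co-chaperones had no common direction: log2 ratios were -0.64 for the immunophilin Fkbp4, with another probe set at 0.53, -0.61 for the Hsp90 co-chaperone Stip1, -0.01 for Hsp90aa1 and 0.21 for Hspa8, each by the brightest probe set. Over the 7 measured genes of this list the median was 0.21, which turned to -0.01 after median centring.

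Genes known to respond to glucocorticoid were mostly higher in early bulge cells. Of 18 measured, 6 were at least 2-fold higher there and 1 in ORS cells, against 7.30% and 4.78% of all measured genes. The median log2 ratio was 0.59. The glutamine synthetase Glul was 7.69-fold higher (5258 and 683.4), Cebpd, a transcription factor, 2.90-fold higher (1793 and 619.0) and Ddit4, an mTOR inhibitor, 2.62-fold higher (2695 and 1029). Another probe set of Cebpd gave a log2 ratio of 0.63. The metallothionein Mt1 was 2.82-fold lower in early bulge cells (3718 and 10470), while its other probe set gave a log2 ratio of 0.01, and the mean over probe sets was -0.74. Fkbp5 and Tsc22d3, widely used readouts of the receptor and named after their values were seen, had log2 ratios of -0.59 and 0.15. These genes also respond to stress. All 9 immediate early genes, which respond to cell dissociation, were higher in early bulge cells (median log2 ratio 0.76), against 53.0% of all measured genes. The part of dissociation was not tested.

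The 3 clock receptors were all higher in early bulge cells, by different amounts. Rora, which activates clock genes, was dim on both arrays, and 7 of its 9 probe sets were measured. The probe set that represents it gave 221.5 in early bulge cells and 96.8 in ORS cells, a 2.29-fold difference (log2 ratio 1.19). A probe set with 140.1 in early bulge cells and 58.2 in ORS cells gave a log2 ratio of 1.27, and one with 169.6 and 79.5 gave 1.09. The other 4 were between 0.59 and 0.83, so all 7 had one direction and 3 reached 2-fold. Rora stayed at 2-fold or more under 5 of 9 other settings. Its mean over all 9 probe sets, in which the unmeasured ones entered as no difference, was 0.71.

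Nr1d1 and Nr1d2, which encode the repressors REV-ERB alpha and beta, differed by less. Nr1d2 gave 3479 in early bulge cells and 2420 in ORS cells, a log2 ratio of 0.52 with 1 measured probe set. Nr1d1 gave 142.9 in early bulge cells and 117.0 in ORS cells, a log2 ratio of 0.29 with 1 probe set. This ratio is smaller than the root mean square difference of 0.51 between probe sets of one gene. The Nr1d1 gene overlaps the thyroid hormone receptor gene Thra on the opposite strand, and Thra had signals of 1939 and 1449 (log2 ratio 0.42).

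Most clock genes around these receptors were less than 2-fold apart. Of all measured genes, 7.30% were at least 2-fold higher in early bulge cells and 4.78% in ORS cells. Of 4 measured clock activators, whose median was 0.75, Npas2 was at least 2.26-fold higher in early bulge cells (130.6 and 11.9). It was under 2-fold as a mean over all its probe sets, of which only 1 was measured. Clock, a partner of BMAL1, had a log2 ratio of 0.84 (695.7 and 389.0), Arntl2 a ratio of at least 0.66, and Arntl, which encodes BMAL1 and is a classic target of both Rora and the Nr1d receptors, a ratio of 0.09 (632.3 and 592.9). Of 14 measured clock repressors and outputs, 2 were at least 2-fold higher in early bulge cells and none in ORS cells (median log2 ratio 0.23). They were Nfil3 (737.2 and 245.6, log2 ratio 1.59) and Dbp (949.0 and 460.2, 2.06-fold), which encode competing transcription factors of the D-box. Another probe set of Dbp gave a log2 ratio of 0.74, and Dbp was under 2-fold after median centring (0.83), with a pseudocount (0.96) and as a mean over probe sets (0.89). Tef, related to Dbp, had a ratio of 0.72 and the repressor Ciart one of -0.70.

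Most other nuclear receptors were either under the floor or less than 2-fold apart. Of 40 listed, 35 had a probe set naming no other gene, and 17 of these were under the floor on both arrays, among them Rara, Pgr and Esr2. Of the 18 measured, 1 was at least 2-fold higher on each array, where 12.1% of all measured genes were 2-fold apart in either direction. At any size, 14 of the 18 had the higher signal in early bulge cells (median log2 ratio 0.37), against 53.0% of all measured genes. Nr4a3, an immediate early gene itself, was 2.44-fold higher in early bulge cells (588.4 and 241.2), but its second measured probe set gave a log2 ratio of -0.14, and the mean over all its probe sets was 0.38. Nr4a2 was just under 2-fold (606.0 and 304.0, 1.99-fold), with probe sets between 0.40 and 1.10. Of the 9 immediate early genes outside this family, Fosb and Atf3 were at least 2-fold higher in early bulge cells, against 7.30% of all measured genes. Their log2 ratios were 1.25 and 1.12 (0.90 for Atf3 after median centring), and their part in the Nr4a ratios was not tested. Esrrb was 2.29-fold lower in early bulge cells (87.6 and 200.1), but its other probe set gave a log2 ratio of 1.27, so its direction was not settled. The related Esrrg had a ratio of 0.76. The 9 receptors described here and the 18 others were thus both mostly higher in early bulge cells, and the difference between their medians was not tested.

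Coregulators, the proteins through which nuclear receptors turn genes on or off, showed no 2-fold difference with the brightest probe set of each gene. None of 12 coactivators and none of 8 corepressors was 2-fold apart, where 12.1% of all measured genes were. Lists this small do not set the coregulators apart from that share. Their median log2 ratios were 0.0017 and -0.17. Among coactivators, Ncoa1 had a log2 ratio of 0.87, Ppargc1b, a PPAR coactivator, one of 0.77, Ncoa7 one of 0.55 and the methyltransferase Prmt1 one of -0.52. A dimmer probe set of Ncoa2 gave -1.10, while the brightest gave -0.41. Among corepressors, 7 of 8 had the lower signal in early bulge cells, where 53.0% of all measured genes had the higher one. Hr was 1 of these 7, and another of its probe sets gave 0.56. After Hr, the furthest apart were the deacetylase Hdac3, which serves the Nr1d receptors (0.44), the scaffold Sin3a (-0.30) and Nrip1 (-0.26), for which another probe set gave 1.14.

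**Figure D3:**
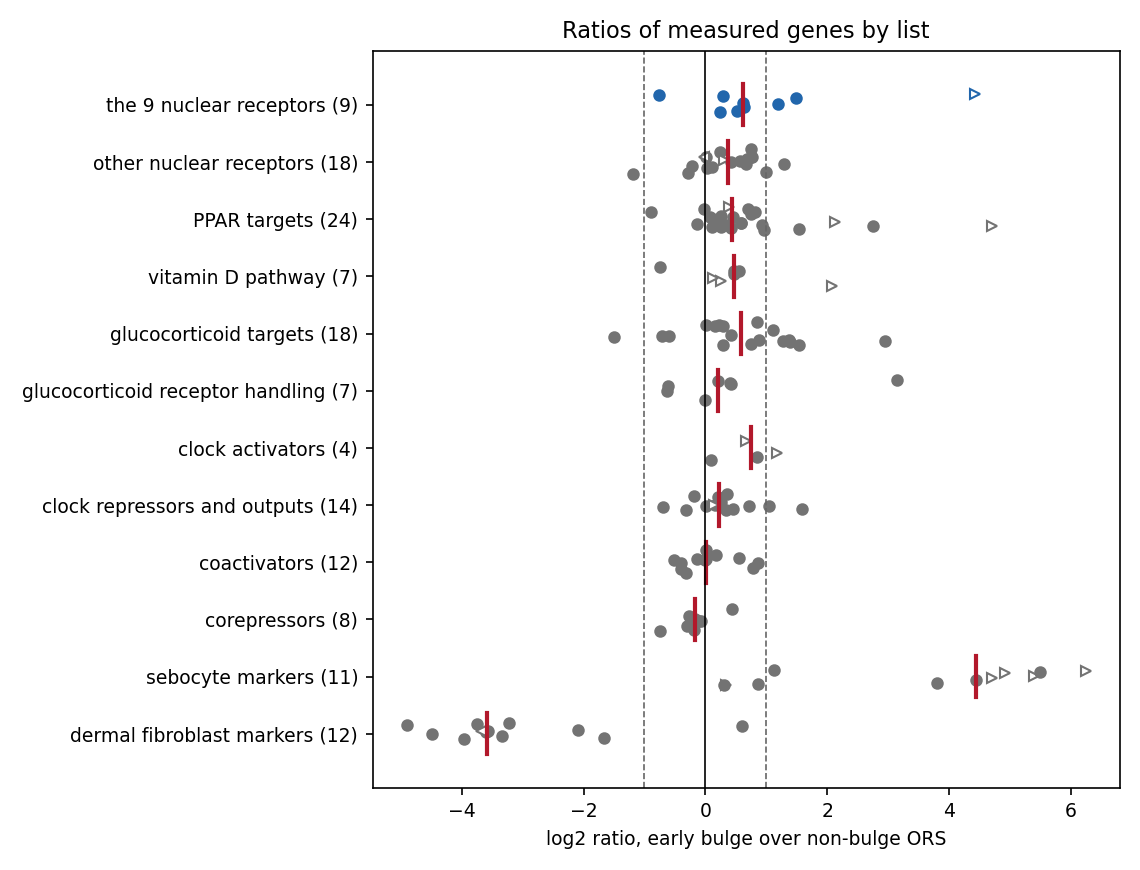
Log2 ratio of early bulge over non-bulge ORS for each measured gene of the lists (count in brackets), open triangles where 1 array was under the floor, red lines at the medians and dashed lines at 2-fold. The 9 receptors have a median of 0.62, the coregulators lie around 0, and sebocyte and dermal fibroblast markers lie far out on opposite sides.

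**Figure D4:**
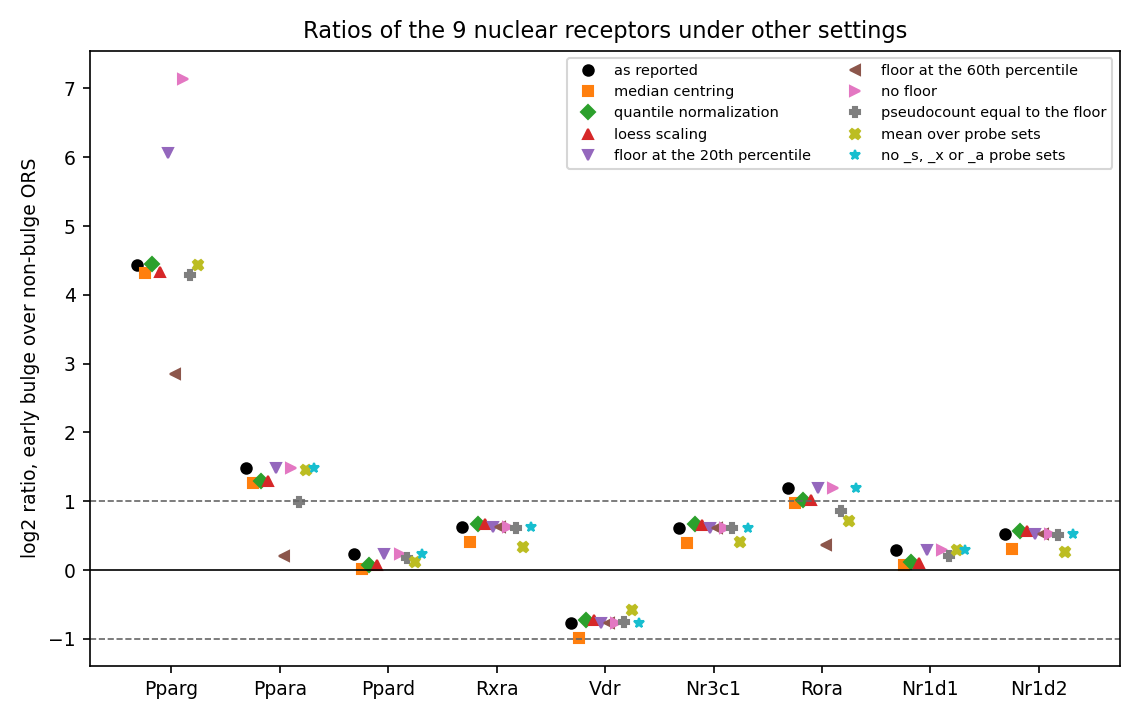
Log2 ratio of early bulge over non-bulge ORS of each of the 9 receptors as reported and under 9 other settings of scaling, floor and choice of probe set, with dashed lines at 2-fold. All values keep their direction, while Rora and Ppara cross the 2-fold line under some settings and the size for Pparg follows the floor.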

How the data were processed

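RNA of 2 sorted populations was measured on 1 Affymetrix array each. The authors deposited 1 linear intensity per probe set. Per the submitters' processing notes these were computed by MAS5 within Affymetrix Expression Console, versions not given. Both arrays had a 2% trimmed mean of 500.0, so they share one scaling target. Detection calls and probe-level data were not used here.

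Of 45101 probe sets, 64 were controls, 34945 had 1 gene symbol in the platform annotation, 932 had several and 9160 had none. Symbols were checked by Entrez ID in a RefSeq table (GRCm38.p6) and none differed. Where a gene had several probe sets, the brightest by mean log2 signal stood for it. The floor was the 40th percentile of pooled signals (57.8), and a gene was measured if 1 array reached it. Of 13252 measured genes, 1718 were under the floor on 1 array. The members and lists were chosen with earlier results of these data known. The text names all members, the other receptors at least 2-fold apart (or the 4 furthest apart), up to 4 genes of each list by size of ratio, and genes marked as named after their values were seen. Rxrb, Rxrg, Nr3c2, Thra, Rara, Rarb, Pgr, Esr2, Hsp90aa1, Hspa8 and Ncoa2 were also added after their values were seen. So were Scd3, Adipoq, Lep, Retn and Cidec, named for signals under the floor. Lists not described in the report are those of immune and endothelial markers (4 measured, none 2-fold apart, median log2 ratio -0.29).

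Scaling, floor and probe set choice were varied in 9 alternatives, and the steps were tested on simulated arrays. The mean over probe sets took in every probe set of a gene, those under the floor on both arrays as no difference. Analysis used Python 3.11.15, pandas 2.3.3, numpy 2.4.6 and statsmodels 0.14.6. Having 1 array per population limits the precision throughout.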

Additional observations from a re-analysis of the deposited data

How the results depend on the processing

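All 78 values of single receptors under the 9 alternatives kept their direction, and 72 kept their side of 2-fold. The exceptions were Rora, at 0.98 after median centring, 0.85 with a pseudocount, 0.71 as a mean over probe sets and 0.37 with the floor raised to the 60th percentile, and also Ppara, at 0.99 with a pseudocount and 0.20 with that floor. The count of receptors at least 2-fold higher in early bulge cells was therefore 1 with a pseudocount and 1 (of 7 measured) with the floor at the 60th percentile, in place of 3. The ratio of Pparg was 2.86 with the floor at the 60th percentile, 6.06 with it at the 20th and 7.14 with no floor. No value could be had for Pparg without _s, _x or _a probe sets, nor for Ppard and Nr1d1 with the floor at the 60th percentile. The count of other nuclear receptors 2-fold apart was 2 as reported, 1 with the floor at the 60th percentile, 1 with a pseudocount, 0 as means over probe sets and 5 with no floor. The direction turned for Esrrb, at 0.027 as a mean over probe sets and 1.27 without _s, _x or _a probe sets, and for Mt1, at 0.010 without those probe sets. Ratios near 0 also changed sign: Arntl (-0.12), Hspa8 (-0.01) and Tsc22d3 (-0.07) after median centring, Tsc22d3 (-0.25) without those probe sets, Nrip1 (0.22) as a mean over probe sets, and Cpt1a and Hsp90aa1 at up to 0.06 in size. The median of the receptors ran from 0.34, as a mean over probe sets, to 0.67. Median centring shifted the median of all measured genes by -0.21 and put 40.9% of genes 2-fold apart higher in early bulge cells, in place of 60.4%. Counts of PPAR targets at least 2-fold higher in early bulge cells ran from 3 to 7 (4 as reported) and of glucocorticoid targets from 4 to 7 (6). After median centring, the PPAR target Fabp4 was at least 2-fold higher in ORS cells (log2 ratio -1.12). No paired analysis was possible because each population has 1 array. Low MAS5 signals, such as those of Ppara, Ppard, Rora and Nr1d1, limit how firmly a ratio can be read.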

Other observations

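A further probe set names Ppard together with another gene, so it was left out of the values above. It gave 124.7 in early bulge cells and 100.7 in ORS cells. Hsd11b2, which inactivates glucocorticoid and was named after its values were seen, had 558.5 in early bulge cells and 422.5 in ORS cells, a log2 ratio of 0.40, beside the ratio of 3.15 for Hsd11b1. Rarg, a retinoic acid receptor also named after its values were seen, had 1698 in early bulge cells and 1057 in ORS cells, a log2 ratio of 0.68, and its second probe set gave 1.16, while Rara and Rarb were under the floor on both arrays.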
